A study of Mus musculus with 12 samples.

Results

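Sonic hedgehog signalling in the embryonic mouse cortex was followed through 10 genes of the pathway, listed by name: the receptor Ptch1, the co-receptors Boc, Cdon and Gas1, the transducer Smo, the inhibitor Sufu, the transcription factors Gli1, Gli2 and Gli3, and the secreted antagonist Hhip. They are 10 of the 23513 genes in the deposited tables, and all 10 were found there. The cortices of 11 C57BL/6J embryos, with 50550 nuclei, had been profiled by snRNAseq, which counts RNA molecules in single nuclei by their molecular barcodes (unique molecular identifiers, UMIs). Dams S1 and S2 carried the 5 saline embryos (S1-1, S1-2, S2-1, S2-2 and S2-4). Dams E1 and E2 carried the 6 EtOH embryos (E1-1, E1-2 and E2-1 to E2-4). The pregnant dams had been injected intraperitoneally with saline or with ethanol (EtOH) once a day from neurulation into cortical neurogenesis, and the labels give the embryos as embryonic day 14. Batch 1 held the litters of S1 and E1, and batch 2 those of S2 and E2. With 2 dams per treatment, the tests take littermates as independent, so they measure the spread between embryos more than that between dams. A further saline embryo, S2-3, was not used here.

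The authors assigned the nuclei to 25 clusters, and their numbers and names were kept. Radial glial cells (RGCs) made up Clusters 2 (RGC 1), 3 (interneuron precursors), 12 (non-mitotic RGCs), 20 (RGC 2) and 21 (cortical hem RGCs), intermediate progenitors (IPCs) Clusters 6 and 17, projection neurons (PN) 8 clusters and interneurons (Int) 7 clusters. Counts were summed over the nuclei of each embryo and cluster and scaled to the same total of UMIs in every sum (CPM), where at least 10 nuclei were present. Embryos had 14078316 to 83061737 UMIs in all. The median nucleus had 6325 to 9051 UMIs in saline embryos and 4072 to 6911 in EtOH embryos, so EtOH nuclei were shallower, and shares of nuclei are given after each nucleus was thinned to 2000 UMIs. Saline embryo S2-4 had the shallowest nuclei of its group, and it had a large part in the counts of changed genes: with it left out, 19056 gene and cluster pairs were called changed, against 1721 with all embryos (edgeR, adjusted p under 0.05 and a fold limit, as explained with the treatment comparison). No pair of libraries shared more than 18 cell barcodes.

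In the absence of ligand, Ptch1 keeps the membrane protein Smo inactive in the primary cilium. Binding of Sonic hedgehog (Shh) to Ptch1, helped by Boc, Cdon and Gas1, releases Smo, and the Gli proteins are then freed from Sufu and from processing into repressors. Gli2 is the main activator and Gli3 the main repressor of the pathway, while Gli1, Ptch1 and Hhip are themselves induced by it and are used as readouts of signalling. In the telencephalon the ligand patterns the ventral side, where interneurons are born, and Gli3 is required for the dorsal side, where the cortex forms.

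On the mouse genome (GRCm38), Ptch1 lies on chromosome 13 from 63508328 to 63573598 on the minus strand, Gli3 on the same chromosome from 15463235 to 15730026 on the plus strand, and Gas1 there from 60174405 to 60177365 on the minus strand. Gli2 is on chromosome 1, Smo on 6, Hhip on 8, Cdon on 9, Gli1 on 10, Boc on 16 and Sufu on 19. All 10 are protein-coding genes. Gli1 overlaps the protein-coding gene Arhgap9 and an antisense transcript on the opposite strand, and Gas1 overlaps the non-coding gene Gm48488. The paper gives default Cell Ranger parameters, but whether the counts used the strand is not given in the sources used here. Reads of such partners may therefore be included, which bears most on the low counts of Gli1. Genes on the same strand, which use of the strand would not set apart, overlap Ptch1 (A930032L01Rik), Smo (Gm13717), Gli3 (Gm48343), Boc (Mir3081) and Cdon (Gm25630).

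Ptch1, Hhip and Gli1, the genes induced by the pathway, were all highest in Cluster 3, the radial glia that also carry interneuron genes. Ptch1 had 289.8 ± 71.4 CPM there (mean ± SD, n = 11 embryos), followed by Cluster 20 with 236.9 ± 62.4 CPM (n = 9) and the cortical hem RGCs of Cluster 21 with 118.9 ± 27.1 CPM (n = 10). The difference between Clusters 3 and 20 was smaller than the spread between embryos. Cluster 2, the main cortical RGCs, had only 47.9 ± 11.1 CPM, less than several interneuron clusters such as Cluster 18 with 94.5 ± 16.5 CPM. The lowest level was in the early projection neurons of Cluster 9, at 10.9 ± 6.91 CPM.

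Within every embryo Ptch1 was higher in Cluster 3 than in Cluster 2, by a median of 6.01-fold (range 3.51 to 9.31 over 11 embryos). In Cluster 3 the saline embryos had 272.6 (S1-1), 279.9 (S1-2), 432.2 (S2-1), 262.9 (S2-2) and 244.1 CPM (S2-4) of Ptch1. The EtOH embryos had 197.8 to 382.5 CPM with a median of 289.4 CPM. Embryo S2-1 stood above the others, and the groups overlapped widely. After thinning, 34.3% ± 6.67 of Cluster 3 nuclei held a Ptch1 UMI, against 7.46% ± 1.73 in Cluster 2 and 2.19% ± 1.86 in Cluster 9, the lowest of the clusters. Free RNA can give UMIs in nuclei that do not express a gene, but its level was not estimated here. The share in Cluster 9 is therefore only the lowest seen and not a measured background.

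Hhip, which binds and sequesters the ligand, was found mostly in Cluster 3, which held 1321 of its 1999 UMIs. It had 44.0 ± 12.1 CPM in Cluster 3 and a mean of at most 4.13 CPM in each of the other 24 clusters. The saline embryos had 57.9, 36.2, 43.6, 46.1 and 31.2 CPM in Cluster 3 (S1-1, S1-2, S2-1, S2-2, then S2-4), while EtOH embryos had 20.05 to 64.7 CPM with a median of 46.3 CPM. The median of the ratio of Cluster 3 to Cluster 2 was 15.5, and Cluster 3 was higher in 11 of 11 embryos. Cluster 20, which shared a high Ptch1 level with Cluster 3, was higher in Hhip than Cluster 2 in only 2 of 9 embryos. It held 12 Hhip UMIs in all, however, so low counts limit what these 9 embryos can show.

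Gli1, the activator that is switched on by the pathway, was found in few nuclei, with 596 UMIs in all and 3 UMIs or fewer in 9 clusters. Its mean was 8.58 ± 2.32 CPM in Cluster 3, 5.10 ± 3.60 in Cluster 20 and 2.86 ± 1.46 in Cluster 2. Cluster 3 was higher than Cluster 2 in 11 of 11 embryos, with a median ratio of 3.94. Of the 24 steps between neighbours in the order of clusters, 0 exceeded the larger SD for Gli1, and 2 did for Ptch1 and for Hhip.

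**Figure D1:**
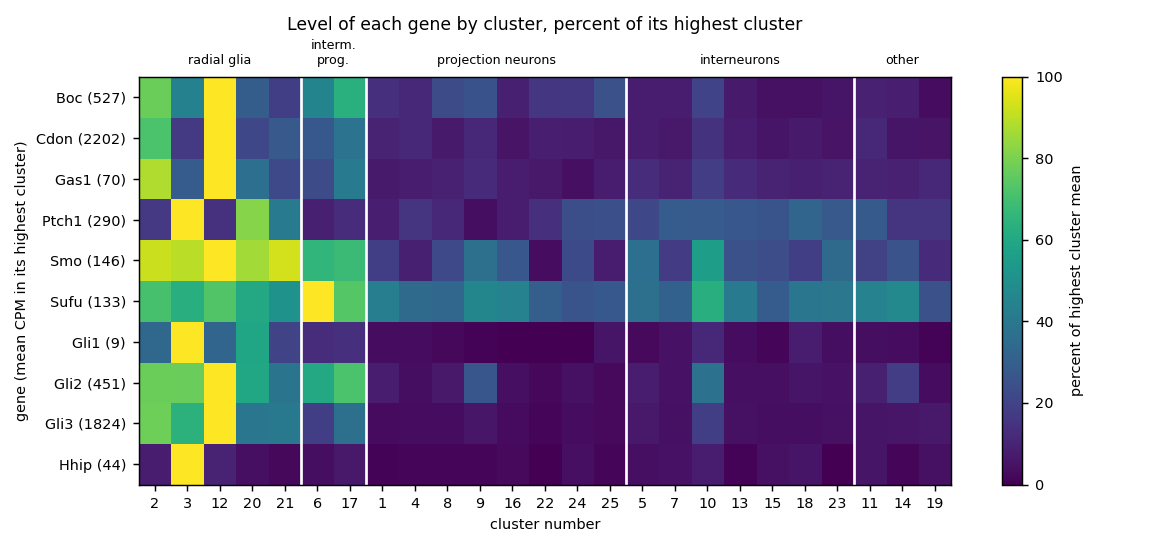
Mean CPM over embryos of each gene (rows) in each of the 25 clusters (columns, grouped by class), as a percent of the gene's own highest cluster, whose mean CPM stands beside its name. Ptch1, Hhip and Gli1 peak in Cluster 3, while Boc, Cdon, Gas1, Smo, Gli2 and Gli3 peak in Cluster 12, and Sufu in Cluster 6.

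The cluster labels were checked against marker genes. The ventral markers Gsx2 and Nkx2-1 together had 19.9 to 66.7 CPM in Cluster 3 and at most 6.76 CPM in Cluster 2, whereas the dorsal markers Emx1 and Emx2 together had 23.2 to 41.5 CPM in Cluster 3 and 120.8 to 173.3 CPM in Cluster 2. Cluster 20 had 0 to 141.9 CPM of the ventral pair and 543.7 to 2906 CPM of the pair Ntng1 and Tcf7l2, which mark thalamus, against 602.3 to 875.1 CPM in Cluster 3 and 291.9 to 482.6 CPM in Cluster 2. The paper describes Cluster 20 as RGCs strong in Tcf7l2, a transcription factor of Wnt signalling. A sum of Ntng1 and Tcf7l2 therefore cannot separate such RGCs from thalamic nuclei. The authors had left out a thalamic cluster marked by the same 2 genes. The part of nuclei from adjacent tissue in the high Ptch1 levels of Clusters 3 and 20 was not tested.

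Gli3, Gli2, Boc, Cdon, Gas1 and Smo were instead highest in Cluster 12, and in all 6 genes Cluster 2 lay within the first 3 places. Gli3, the main repressor, had 1824 ± 213 CPM in Cluster 12, 1424 ± 97.4 in Cluster 2 and 1169 ± 116 in Cluster 3. It was lower in the later stages, with 675.3 ± 48.8 CPM in the mitotic IPCs of Cluster 17, 336.5 ± 34.9 CPM in the non-mitotic IPCs of Cluster 6 and 107.4 ± 35.0 CPM in the early projection neurons of Cluster 9. Its lowest mean was in the callosal projection neurons of Cluster 22, at 35.5 ± 13.3 CPM. After thinning, 91.7% ± 1.49 of Cluster 2 nuclei held a Gli3 UMI, against 6.01% ± 4.06 in Cluster 22. Gli3 was higher in Cluster 12 than in Cluster 2 in 11 of 11 embryos (median ratio 1.30) and higher in Cluster 3 than in Cluster 2 in 1 of 11 (median ratio 0.82).

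Gli2, the main activator, had 451.2 ± 65.5 CPM in Cluster 12, 350.5 ± 29.2 in Cluster 2 and 348.7 ± 39.9 in Cluster 3, and Clusters 2 and 3 did not differ beyond their spread. The IPCs kept 323.5 ± 36.7 CPM in Cluster 17 and 272.9 ± 28.5 CPM in Cluster 6. The median ratio of Cluster 2 to Cluster 6 was 1.29 for Gli2, against 4.21 for Gli3.

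The 3 co-receptors were lower in Cluster 3 than in Cluster 2, opposite to Ptch1. Cdon, an adhesion molecule of the immunoglobulin superfamily that binds the ligand, had 2202 ± 153 CPM in Cluster 12 and 1579 ± 137 CPM in Cluster 2, but 374.1 ± 57.6 CPM in Cluster 3. The median ratio of Cluster 3 to Cluster 2 was 0.25, with Cluster 3 lower in every embryo. Boc, a close relative of Cdon, had 526.9 ± 56.7 CPM in Cluster 12, 408.9 ± 35.7 in Cluster 2 and 230.8 ± 32.4 in Cluster 3. Among neurons Boc was highest in the early projection neurons of Cluster 9, with 132.2 ± 23.7 CPM. Gas1, a membrane-anchored co-receptor, had 70.0 ± 20.9 CPM in Cluster 12, 61.6 ± 10.8 in Cluster 2 and 20.4 ± 6.43 in Cluster 3. Boc and Gas1 were also lower in Cluster 3 than in Cluster 2 in 11 of 11 embryos, with median ratios of 0.56 and 0.31.

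Smo and Sufu act below the receptor, Smo as the transducer at the membrane and Sufu as the inhibitor that holds Gli proteins back. Smo lay between 126.1 and 146.3 CPM in the 5 RGC clusters, which took the first 5 places, and none of these neighbours differed beyond their spread. Sufu was highest in the non-mitotic IPCs of Cluster 6, at 133.2 ± 16.8 CPM, and fell to 33.2 ± 6.37 CPM in Cluster 19, a neuron cluster that the authors left without a type. Of the 24 steps in its order, 2 exceeded the larger SD. Cluster 6 was higher than Cluster 2 in Sufu in 11 of 11 embryos, with a median ratio of Cluster 2 to Cluster 6 of 0.70.

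**Figure D2:**
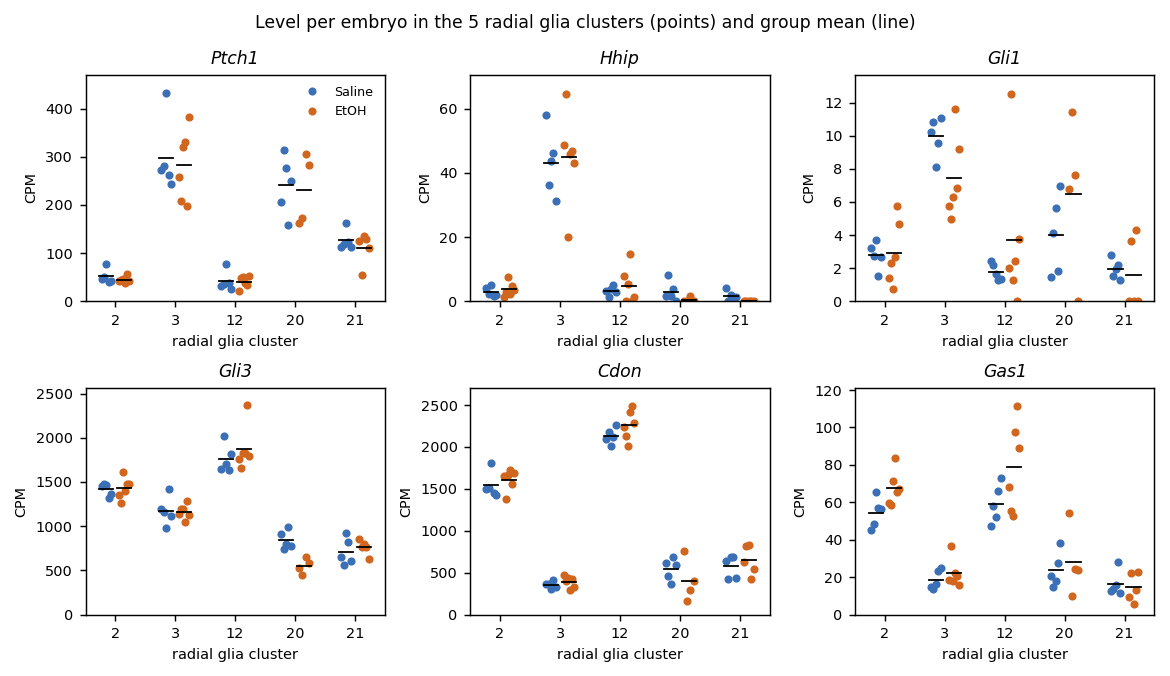
CPM per embryo (points, saline blue and EtOH orange) and group means (lines) of 6 genes in the 5 RGC clusters, for embryos with at least 10 nuclei. Ptch1, Hhip and Gli1 are high in Cluster 3, while Cdon and Gas1 are higher in Clusters 2 and 12, and the treatments overlap in most panels.

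Over the 25 cluster means, as log2(CPM + 1), the patterns of Gli2, Gli3, Cdon and Gas1 were close to each other. Pearson's r was 0.94 between Gli3 and Gas1, 0.93 between Gli2 and Gli3 and 0.91 between Cdon and Gas1. Ptch1 had r of 0.58 with Gli1 and 0.50 with Hhip, but 0.02 with Cdon and -0.08 with Boc. Gli1 and Hhip did not share this distance. Gli1 had r of 0.87 with Gli3, 0.79 with Gli2, 0.70 with Cdon and 0.64 with Boc, above its r with Ptch1. Hhip had r of 0.73 with Gli1, 0.63 with Gli3 and 0.40 with Cdon. Both genes were low in most clusters, with medians of 0.306 CPM for Gli1 and 1.78 CPM for Hhip over the cluster means. Their r therefore rests on few clusters. The highest mean of Gli1, 8.58 CPM, is also below the limit of 10 CPM set for the genes compared next. Among 11621 genes with at least 10 CPM in a cluster, the 3 most like Ptch1 were Lgr4 (r 0.87), Mest (0.79) and Greb1l (0.79), and the 3 most like Gli3 were Prdx1 (0.97), Rif1 (0.97) and Wwtr1 (0.97). Gli2 was most like Tead2 (0.98), Ddx52 (0.98) and Setd5 (0.98), and Gli1 most like Hes5 (0.95), Fam69c (0.94) and Acot1 (0.94). Of the co-receptors, Cdon was most like Creb5 (0.92), Fam162a (0.92) and Nfatc4 (0.92), Gas1 most like Creb5 (0.96), Kcnj10 (0.94) and Gli3 (0.94), and Boc most like Slc41a1 (0.90), Cr1l (0.89) and Adat1 (0.89). Smo was most like Arhgap17 (0.94), Rbm39 (0.94) and Ddx17 (0.94), Sufu most like Pafah1b2 (0.94), Xrcc5 (0.94) and Nemf (0.93), and Hhip most like Gm12239 (0.87), Nwd1 (0.80) and Dleu7 (0.79). These are descriptions over clusters that come from the same libraries.

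Single nuclei of Cluster 3 were then compared after thinning to 2000 UMIs. Nuclei with a Ptch1 UMI (1451 in all) held an Hhip UMI in 9.90% ± 3.45 of cases (n = 11 embryos), against 3.33% ± 1.81 of the 2565 nuclei without one, and the share was higher in 11 of 11 embryos. Gli1 was found in 4.097% ± 2.07 against 1.18% ± 0.69 (higher in 9 of 11), and Nkx2-1, a ventral transcription factor, in 6.28% ± 3.18 against 4.04% ± 2.57 (higher in 11 of 11). Cdon went the other way, with 31.2% ± 7.87 against 43.7% ± 5.69, and the share was higher beside Ptch1 in 0 of 11 embryos. Gli3 (72.2% ± 9.17 against 81.2% ± 4.87) and Dlx1, a transcription factor of interneuron development (9.15% ± 2.99 against 17.3% ± 4.84), were each higher beside Ptch1 in 1 of 11 embryos.

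Nuclei of Cluster 3 with a Gli3 UMI more often held Cdon (42.9% ± 5.29 against 27.0% ± 7.10, higher in 11 of 11 embryos), Gli2 (46.5% ± 3.72 against 33.2% ± 9.402, 10 of 11) and Boc (35.7% ± 4.33 against 21.8% ± 10.5, 10 of 11). In Cluster 2, Cdon was again rarer in nuclei with Ptch1, at 70.5% ± 18.9 against 88.6% ± 2.25, and higher in 0 of 11 embryos. There, Hhip was too rare for a direction to be read (1.31% ± 2.38 against 0.31% ± 0.26, higher in 3 of 11). The clusters were made from these counts, so these shares describe how the nuclei within them differ and were not tested.

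**Figure D3:**
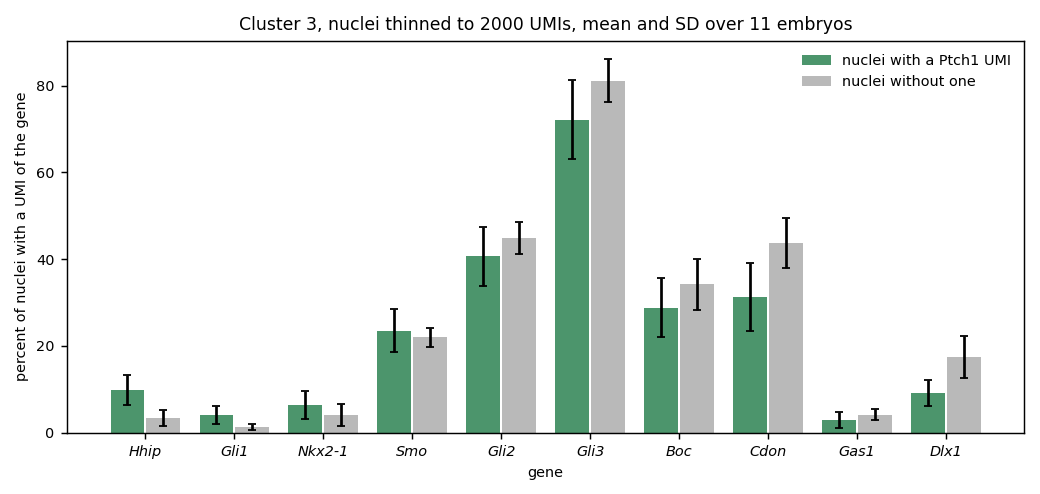
Percent of Cluster 3 nuclei with a UMI of each gene, in nuclei with and without a Ptch1 UMI, after thinning to 2000 UMIs; bars are means over 11 embryos and error bars SDs. Hhip, Gli1 and Nkx2-1 are found more often beside Ptch1, and Gli3, Boc, Cdon and Dlx1 less often.

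The question of the study was what prenatal EtOH changes in each cell type. Of the members, Gli3 was called lower after EtOH by edgeR in 4 clusters, all of them projection neurons, and Boc in 1 of these. No member was called in any other cluster by this test with all embryos, and none was called higher, but which pairs were called depended on the fit. Gli3 was also called lower in Clusters 14 (Cajal-Retzius cells) and 19 (unknown neurons) with DESeq2, with limma voom and the dam as a random block, and with no filter on low counts. It was called in Cluster 14 with sums per dam and without S2-4, and in Cluster 19 with at least 30 nuclei, in batch 2 alone and without E1-2. Further calls of Gli3, all lower, were in Cluster 23 (migrating interneurons) with at least 30 nuclei, sums per dam and no filter, in Cluster 20 with voom and no filter, in Cluster 7 (Int 1) with voom, in Cluster 4 in batch 1 alone and without S2-4, and in Clusters 5 and 15 with thinned nuclei. The log2 fold changes of Gli3 in Clusters 7, 14, 19 and 23 were -1.01 ± 0.32, -0.88 ± 0.19, -0.99 ± 0.27 and -1.66 ± 0.63 (edgeR, adjusted p = 0.147, 0.0733, 0.148 and 0.332), so the lowest of all clusters was that of Cluster 23, which was not called. In the interneurons of Clusters 5, 13 and 15 Gli3 had log2 fold changes of -0.57 ± 0.32, -0.36 ± 0.16 and -0.70 ± 0.45, which were not called (edgeR, adjusted p = 0.331, 0.301 and 0.534). Genes were called with edgeR's quasi-likelihood test at a Benjamini-Hochberg adjusted p under 0.05 over all genes tested in the cluster and a fold below 0.8 or above the inverse of 0.8. Of 250 pairs of a member and a cluster, 181 passed the filter on low counts. By the sign of the fitted change, used for such counts throughout, 133 of them were lower in EtOH and 48 higher. The median log2 fold change of all genes tested lay between -0.00702 and 0.0145 over the clusters. In some pairs near 0 the mean CPM went the other way, as for Gli3 in Cluster 2. Of the 181 pairs, 5 were called, all lower. Over all genes and the 25 clusters, 0.35% of pairs were called lower and 0.442% higher, and 17.4% had an unadjusted p under 0.05 in edgeR. The clusters share their embryos, so a direction seen in several of them was not seen independently, and in bulk sums fewer nuclei with a gene and less RNA per nucleus cannot be told apart.

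In Cluster 1, callosal projection neurons, Gli3 had 81.8 (S1-1), 51.3 (S1-2), 97.5 (S2-1), 99.9 (S2-2) and 49.1 CPM (S2-4) in saline embryos. The EtOH embryos had 20.7 to 36.7 CPM with a median of 30.8 CPM. The groups did not overlap. The log2 fold change was -1.38 ± 0.24 (SE, edgeR, adjusted p = 0.0256), and 1.69% of all genes tested in this cluster were called lower. The mean in Cluster 2 was 28.0 times that in this cluster, over all embryos.

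In Cluster 16, caudal subcortical projection neurons, Gli3 had 72.6, 80.6, 90.0, 121.7 and 58.0 CPM in the saline embryos, in the same order. The EtOH embryos had 11.6 to 47.5 CPM with a median of 30.01 CPM, and again the groups did not overlap. The log2 fold change was -1.64 ± 0.27 (edgeR, adjusted p = 0.0281), with 0.247% of all genes called lower. The counts behind the EtOH values were small, from 8 to 39 UMIs of Gli3 per embryo.

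In Cluster 8 (PN 1) the saline embryos had 104.7, 87.8, 79.2, 111.6 and 49.1 CPM of Gli3, and the EtOH embryos 29.8 to 57.6 CPM with a median of 39.3 CPM. Here S2-4 fell below the highest EtOH embryo, and the other 4 saline embryos lay above all of them. The log2 fold change was -1.17 ± 0.24 (edgeR, adjusted p = 0.0424), with 0.865% of genes called lower. In the early projection neurons of Cluster 9 the saline embryos had 123.9, 136.1, 155.6, 173.4 and 91.8 CPM, and the EtOH embryos 63.4 to 101.4 CPM with a median of 82.6 CPM. Only S2-4 overlapped the EtOH range, the log2 fold change was -0.75 ± 0.15 (edgeR, adjusted p = 0.0295), and 0.799% of genes were called lower.

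**Figure D4:**
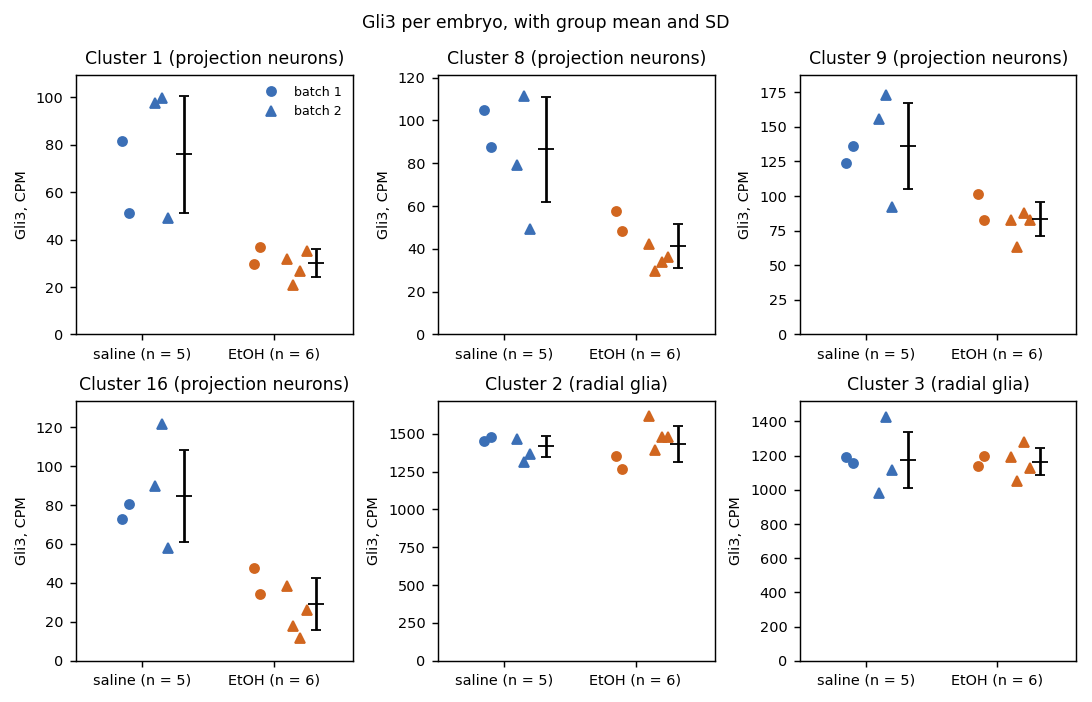
Gli3 in CPM per embryo, saline blue and EtOH orange, circles batch 1 and triangles batch 2, with the group mean and SD beside the points. In Clusters 1 and 16 all saline embryos lie above all EtOH embryos, in Clusters 8 and 9 only S2-4 overlaps, and in the RGCs of Clusters 2 and 3 the groups overlap.

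The 4 calls were sensitive to single embryos but not in direction: over the alternative fits and embryos left out, the log2 fold change stayed between -1.52 and -1.13 in Cluster 1, -1.52 and -1.01 in Cluster 8, -0.88 and -0.58 in Cluster 9, and -1.996 and -1.07 in Cluster 16. Without S2-4 the adjusted p (edgeR) fell to 0.000433, 3.27e-06, 2.99e-06 and 0.00043, while leaving out S1-1, S2-1, E2-1, E2-2 or E2-4 left no member called in any cluster. Within batch 1 the log2 fold changes in Clusters 1, 8, 9 and 16 were -1.13, -1.01, -0.58 and -1.07 (edgeR, adjusted p = 0.017, 0.0104, 0.0584 and 0.03), and within batch 2 they were -1.52, -1.14, -0.83 and -1.996 (adjusted p = 0.223, 0.349, 0.292 and 0.114). With the batch as a term, which pairs the dams of the same number, Clusters 1 and 16 kept the call (adjusted p = 0.0332 and 0.0451) and Clusters 8 and 9 lost it (0.0511 and 0.0525). With counts summed per dam, Clusters 1, 9 and 16 kept it (0.000522, 0.0119 and 0.0422) and Cluster 8 lost it (0.153), and with at least 30 nuclei per embryo Cluster 16 lost it. With 1 embryo left out the call was kept in 5 of 11 cases in Cluster 1, 4 in Cluster 16 and 1 each in Clusters 8 and 9. With every nucleus thinned to 2000 UMIs before summing, which removes the difference in depth per nucleus and most of the counts, Gli3 was not called in Clusters 1, 8 and 9 (log2 fold change -1.31, -1.52 and -0.63, edgeR, adjusted p = 0.0888, 0.0773 and 0.0815) and did not pass the filter in Cluster 16.

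Other genes that are high in radial glia were mostly lower after EtOH in these neurons as well. Of the genes with at least 50 CPM in Cluster 2 and a level at least 10 times lower in the neuron cluster, Gli3 aside, 194 of 205 tested were lower after EtOH in Cluster 1, 168 of 182 in Cluster 8, 97 of 103 in Cluster 9 and 101 of 105 in Cluster 16, where 48.2% to 49.5% of all genes tested were lower. Their median log2 fold changes were -0.67, -0.53, -0.72 and -0.71, with 49, 16, 8 and 5 of them called lower and 0 called higher by edgeR. The change in Gli3 was larger than that of most of them in Cluster 1 (15 genes fell further), Cluster 8 (10) and Cluster 16 (3), while in Cluster 9 it lay near their median, with 50 of 103 falling further. The sets held 282, 249, 249 and 259 genes, and those that did not pass the filter were left out. Genes this low can pass it through the group where they are higher. The sets were picked for low levels in these neurons, unlike all genes tested, so these counts are a description and not a test.

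The 6 RGC markers Hes1, Hes5, Sox2, Pax6, Slc1a3 and Vim together had 74.4 to 108.7 CPM in saline and 60.1 to 93.7 CPM in EtOH embryos in Cluster 1, 63.4 to 114.4 and 54.8 to 133.0 CPM in Cluster 8, 86.8 to 138.4 and 52.3 to 93.8 CPM in Cluster 9, and 78.3 to 128.4 and 81.4 to 120.0 CPM in Cluster 16. The groups overlapped in all 4 clusters. In Clusters 1, 8, 9 and 16, only 4, 4, 3 and 3 of the 6 markers passed the filter. Of these, 4, 3, 2 and 3 were lower after EtOH. Hes1 and Hes5 passed it in none of the 4 clusters, and Sox2 not in Clusters 9 and 16. Slc1a3, a glial glutamate transporter, alone had means of 37.3 to 62.8 CPM in the saline embryos of these clusters. It was the only tested marker called, in Cluster 9 (log2 fold change -1.005 ± 0.22, edgeR, adjusted p = 0.0322). Markers of neurons were also called lower in 2 of these clusters. Whether these marker calls, and that of Slc1a3, hold under the other fits is not given here. Neurod2, a transcription factor of projection neurons, fell from 313.2 ± 72.8 to 200.3 ± 12.7 CPM in Cluster 1 (edgeR, adjusted p = 0.0433) and from 363.3 ± 81.8 to 235.9 ± 20.6 CPM in Cluster 9 (adjusted p = 0.0445). Neurog2, a proneural factor, fell from 11.6 ± 1.92 to 7.15 ± 1.64 CPM in Cluster 1 (adjusted p = 0.0462), and Reln, a marker of Cajal-Retzius cells, from 300.2 ± 86.5 to 167.8 ± 20.4 CPM in Cluster 9 (adjusted p = 0.0376). RGCs were 20.97% to 31.2% of the nuclei of saline embryos and 17.2% to 23.5% of those of EtOH embryos. The part of RNA from radial glia, and of the changes in neuron markers, in the lower Gli3 of neurons was not tested.

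Gli3 was not called lower in the radial glia themselves. In Cluster 2 it had 1415 ± 71.3 CPM in saline (n = 5) and 1431 ± 122 CPM in EtOH embryos (n = 6), a log2 fold change of -0.04 ± 0.07 (edgeR, adjusted p = 0.776). In Cluster 12, where it was highest, the log2 fold change was 0.05 ± 0.09 (adjusted p = 0.821). The mitotic IPCs of Cluster 17 had 663.8 ± 39.6 and 684.9 ± 57.2 CPM. Cluster 20 was the exception among the RGCs, with 843.8 ± 104 CPM in saline and 549.9 ± 90.0 CPM in the 4 EtOH embryos with enough nuclei. The groups there did not overlap, but the log2 fold change of -0.64 ± 0.15 was not called (edgeR, adjusted p = 0.18), although it was with limma voom and the dam as a random block and with no filter on low counts. Over the 25 clusters, Gli3 was lower in 22 and higher in 3 by the sign of the fitted change, which puts Cluster 2 among the lower. It had an unadjusted p under 0.05 in 12, where 17.4% of pairs over all genes had one.

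Whether the Gli3 difference in each of the 4 neuron clusters differed from that in Cluster 2 was asked after these values were seen, with the embryo as a block and a term for cluster by treatment. The difference of log2 fold changes, neuron cluster minus Cluster 2, was -1.34 ± 0.27 for Cluster 1, -1.15 ± 0.26 for Cluster 8, -0.75 ± 0.17 for Cluster 9 and -1.63 ± 0.32 for Cluster 16. None passed the threshold over all genes (edgeR, adjusted p = 0.131, 0.276, 0.161 and 0.134), which 8 of 12450, 1 of 12535, 14 of 11341 and 10 of 11286 genes did. Cdon in Cluster 9 came nearest among the other members (-0.44 ± 0.10, adjusted p = 0.0647).

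With the counts of all 25 clusters summed per embryo, Gli3 fell from 415.8 ± 58.9 CPM to 333.4 ± 46.1 CPM, a log2 fold change of -0.39 ± 0.10 (edgeR, adjusted p = 0.0216), where 3.55% of genes were called lower. The call was lost with counts summed per dam (adjusted p = 0.0986) and without S1-2, S2-1 or S2-2. No other member was called in that sum, which also moves with the mix of clusters. Smo came next, with 65.3 ± 5.65 and 56.1 ± 5.14 CPM and a log2 fold change of -0.29 ± 0.06 (adjusted p = 0.0154), which passed the test but not the fold limit. In the sum of the 5 RGC clusters 0 of the 10 members were called, against 3.79% of all genes, and 1, Gas1, had an unadjusted p under 0.05 (38.2 ± 7.95 against 49.5 ± 6.26 CPM, higher after EtOH, edgeR, adjusted p = 0.1). Of the 42 pairs tested in the single RGC clusters, 4 had an unadjusted p under 0.05, against 17.4% of pairs over all genes and clusters, and 0 were called. Under other fits, members were called in the RGC sum, 2 in batch 1 alone and 1 without S2-4. Over all genes and clusters, 4826 pairs were called higher and 3007 lower of 202321 in batch 1 alone. Without S2-4 these were 13398 and 5658 of 212128.

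Boc was called in Cluster 1, with 62.0, 75.7, 94.7, 98.1 and 71.9 CPM in the saline embryos and 55.0 to 66.7 CPM in the EtOH embryos. Embryo S1-1 lay within the EtOH range and the other 4 above it. The log2 fold change was -0.41 ± 0.11 (edgeR, adjusted p = 0.0432), and the adjusted p was 0.00395 without S2-4. The call was lost when any of the other 10 embryos was left out, and the log2 fold change was -0.27 in batch 1 alone (adjusted p = 0.273) and -0.49 in batch 2 alone (adjusted p = 0.223). Of 9 alternative fits 6 kept the call, the batch term among them (adjusted p = 0.0356). It was lost with the dam as a random block (limma voom, adjusted p = 0.082), with counts summed per dam (0.166) and with thinned nuclei (0.219), where the log2 fold changes were -0.36, -0.37 and -0.39. With no filter Boc was also called lower in Cluster 19. In its highest cluster, Cluster 12, Boc had 528.8 ± 43.8 and 525.4 ± 70.0 CPM.

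The readouts of signalling were not called in any cluster by edgeR with all embryos. Ptch1 was called lower in Clusters 1, 9 and 11 with no filter on low counts and in Clusters 6, 8, 9 and 11 without S2-4, and in no other fit. With all embryos Ptch1 was lower in 23 of 25 clusters, with an unadjusted p under 0.05 in 6 of the 25 (17.4% of pairs over all genes), and its smallest p was in Cluster 9, where saline embryos had 14.6 ± 8.41 CPM and EtOH embryos 7.75 ± 3.65 CPM (log2 fold change -0.95 ± 0.37, edgeR, adjusted p = 0.154). Saline embryo S2-1 had 29.1 CPM of Ptch1 in Cluster 9, against 8.10 to 14.1 CPM in the other saline embryos. In Cluster 3 the log2 fold change of Ptch1 was -0.12 ± 0.21 (edgeR, adjusted p = 0.781). Hhip in Cluster 3 had 43.0 ± 10.2 and 44.9 ± 14.4 CPM (log2 fold change -0.08 ± 0.24, adjusted p = 0.891). The means and the fitted change differ in sign there, so no direction is given for Hhip, which passed the filter in 2 clusters only. Gli1 passed it in Cluster 3 alone, with 10.2, 10.8, 8.10, 9.55 and 11.1 CPM in saline embryos and 4.97 to 11.6 CPM with a median of 6.58 CPM in EtOH embryos. The log2 fold change of Gli1 was -0.34 ± 0.22 (edgeR, adjusted p = 0.435), from 3 to 60 UMIs of Gli1 per embryo in this cluster.

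The co-receptors Cdon and Gas1 were not called by edgeR with all embryos. Under other fits Cdon was called lower in Cluster 9 (DESeq2, edgeR with RLE in place of TMM scaling factors, no filter and without S2-4), Cluster 8 (voom, no filter, without E1-1 and without S2-4), Cluster 16 (no filter and without S2-4) and Cluster 23 (no filter), and Gas1 in Cluster 1 (no filter and without S2-4). With all embryos Cdon was lower in 20 of 25 clusters and reached an unadjusted p under 0.05 in 8 (17.4% of pairs over all genes), and in Cluster 9 it had 287.8 ± 43.9 and 226.0 ± 26.3 CPM with a log2 fold change of -0.38 ± 0.10 that was not called (edgeR, adjusted p = 0.0537). In Cluster 12 it had 2133 ± 95.5 and 2260 ± 175 CPM. Gas1 had 6.81 ± 4.097 and 3.38 ± 0.93 CPM in Cluster 1 (edgeR, adjusted p = 0.0842), where 1 saline embryo, S2-2, had 14.1 CPM, and 59.3 ± 10.5 and 78.9 ± 23.996 CPM in Cluster 12 (adjusted p = 0.215).

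Gli2, Smo and Sufu were not called by edgeR with all embryos either. Gli2 was called lower in Cluster 4 with no filter and without S2-4, and higher in Cluster 11 in batch 1 alone, the one call of a member in that direction under any fit by cluster. Smo was called lower in Cluster 18 with no filter and in Cluster 5 without S2-4, and Sufu in no fit. With all embryos Gli2 had its smallest p in Cluster 4, rostral subcortical projection neurons, with 20.2 ± 2.61 and 14.3 ± 3.12 CPM (log2 fold change -0.47 ± 0.15, edgeR, adjusted p = 0.0917), and 417.5 ± 48.6 and 479.2 ± 68.0 CPM in Cluster 12. Smo had its smallest p in the striatal interneurons of Cluster 11, with 32.5 ± 1.36 and 25.1 ± 2.74 CPM, where the groups did not overlap (log2 fold change -0.40 ± 0.12, adjusted p = 0.1), and 137.3 ± 5.41 and 153.9 ± 38.6 CPM in Cluster 12. Sufu was tested in 24 clusters and had an unadjusted p under 0.05 in 0 of them by edgeR. Its values in Cluster 6 were 126.8 ± 23.7 and 138.6 ± 6.45 CPM, and in Cluster 17, where its p was smallest, 90.8 ± 5.80 and 104.2 ± 15.1 CPM (adjusted p = 0.469).

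**Figure D5:**
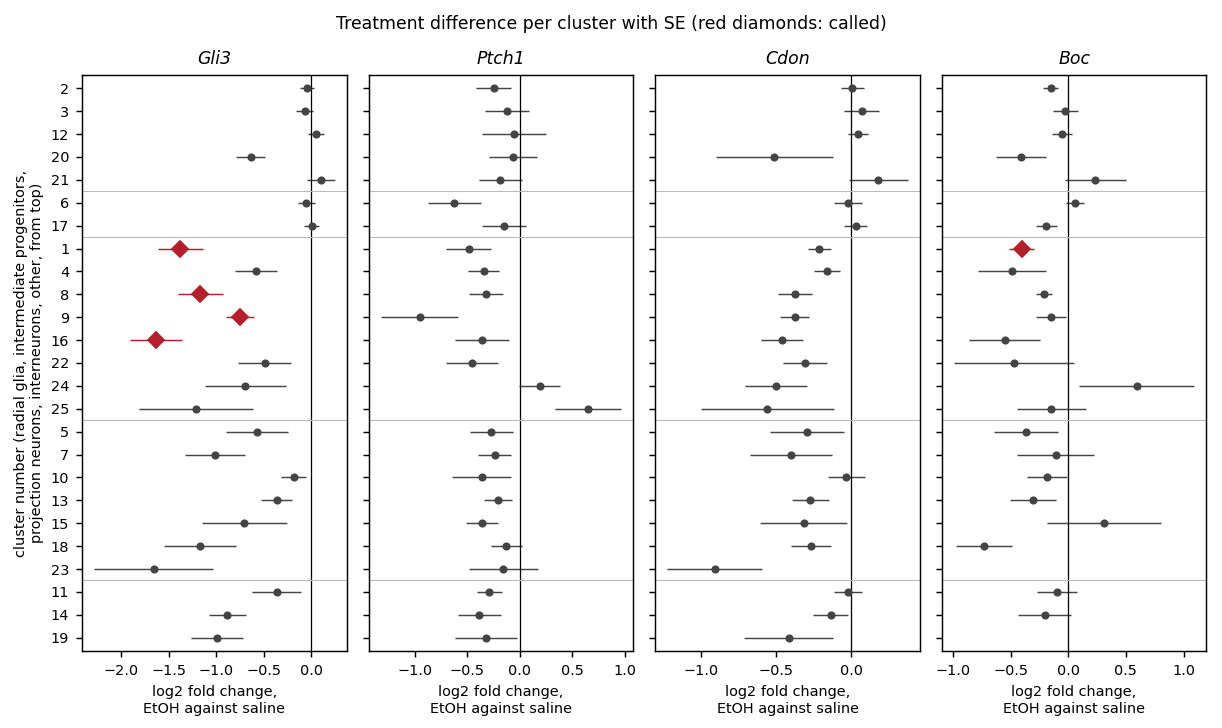
Log2 fold change of EtOH against saline (x axis) with SE for Gli3, Ptch1, Cdon and Boc in each cluster where the gene passed the filter (y axis, grouped by class); red diamonds mark called pairs. Gli3 lies near 0 in Clusters 2, 3, 12, 6 and 17 and below 0 in Clusters 1, 8, 9 and 16, where it was called, and Boc was called in Cluster 1.

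The share of nuclei with a UMI was compared in the thinned nuclei by a two-sided exact permutation test over embryos, for every gene that passed the filter. In Cluster 1, 13.8% ± 5.64 of saline nuclei and 5.46% ± 1.85 of EtOH nuclei held a Gli3 UMI (exact permutation p = 0.00433, adjusted p = 0.19), and in Cluster 16 the shares were 13.7% ± 4.36 and 5.39% ± 1.79 (exact permutation p = 0.00433, adjusted p = 0.419). In Cluster 19 they were 20.7% ± 2.59 and 9.61% ± 1.97, with p = 0.00216 in the exact permutation test, the smallest that 5 against 6 embryos can give, and an adjusted p of 0.516. Gli3 reached that same smallest p in the interneurons of Clusters 5 (15.8% ± 3.75 and 7.18% ± 1.37, adjusted p = 0.196), 13 (13.02% ± 3.16 and 6.31% ± 1.98, adjusted p = 0.321) and 15 (11.3% ± 2.62 and 3.46% ± 2.41, adjusted p = 0.562), by the exact permutation test. Ptch1 reached it in the callosal projection neurons of Cluster 22 (10.3% ± 2.56 and 4.107% ± 2.43, adjusted p = 0.414), and in Cluster 9 it had 3.54% ± 1.88 and 1.07% ± 0.86 (exact permutation p = 0.00649, adjusted p = 0.22). Sufu went the other way in Cluster 16, with 8.81% ± 1.59 and 12.9% ± 2.38 (exact permutation p = 0.00866, adjusted p = 0.452). For Gli3 in Cluster 8 the shares were 15.3% ± 5.45 and 5.58% ± 1.02, and in Cluster 9 21.4% ± 5.94 and 13.8% ± 2.09. No member and no gene passed the adjustment (0% of all gene and cluster pairs), while 23.2% of the 181 member pairs had an unadjusted p under 0.05 in the exact permutation test, against 10.4% of all pairs. In the radial glia of Cluster 20, Gli3 also had the smallest p possible there. The shares were 70.6% ± 4.73 in 5 saline and 58.8% ± 4.43 in 4 EtOH embryos (exact permutation p = 0.00794, adjusted p = 0.461). The smallest p this test could give was 0.00794 in Clusters 20 and 24 and 0.0476 in Cluster 25. Adjusted over all genes of a cluster, it could call a gene only where many reached the smallest p together. The lack of calls therefore does not show a lack of change.

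The treatment difference in Cluster 2 was also set against that in Cluster 3, the cortical and the ventral kind of radial glia. Of 12612 genes tested, 0 reached an adjusted p under 0.05 (edgeR with the embryo as a block), nor did any member, and 0 of the members had an unadjusted p under 0.05.

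Other genes of the pathway were taken from 5 lists. Their calls are those of edgeR with all embryos, and whether they hold under the other fits is not given here. Over all genes and clusters, 961 pairs were called higher and 760 lower with all embryos. These were 39 and 50 without S1-1, 26 and 24 in batch 2 alone, and 13398 and 5658 without S2-4. Among ligands and genes for their release, Shh itself was near the limit, with its highest mean of 3.62 ± 3.69 CPM in the interneurons of Cluster 15, and the highest levels belonged to Scube1 (259.5 ± 63.8 CPM in Cluster 13), Disp3 (118.1 ± 33.2 in Cluster 6), Disp1 (88.2 ± 14.3 in Cluster 22) and Scube3 (39.8 ± 9.45 in Cluster 14). Of 120 pairs of a list gene and a cluster, 1 was called lower and 0 higher, against 0.35% and 0.442% of pairs over all genes: Disp1, which releases the lipid-linked ligand from producing cells, fell from 63.3 ± 2.74 to 48.4 ± 6.46 CPM in Cluster 2 (log2 fold change -0.44, edgeR, adjusted p = 0.0408).

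The 8 further receptors and membrane regulators were tested in 134 pairs with a cluster, of which 2 were called lower and 2 higher (0.35% and 0.442% of pairs over all genes). Gpc3, a glypican that binds the ligand and lowers signalling, fell from 9.87 ± 5.79 to 2.48 ± 1.07 CPM in Cluster 1 (log2 fold change -1.99, edgeR, adjusted p = 0.0256) and from 12.99 ± 6.003 to 4.93 ± 1.85 CPM in the migrating interneurons of Cluster 5 (adjusted p = 0.0472). Over all embryos it had 85.8 ± 16.1 CPM in Cluster 2 and 5.84 ± 5.38 CPM in Cluster 1, so it is among the genes high in radial glia of which 194 of 205 were lower in Cluster 1. Mgrn1, part of a ubiquitin ligase that clears Smo from the membrane, rose from 47.8 ± 7.84 to 65.5 ± 4.88 CPM in Cluster 5 (adjusted p = 0.0424) and from 50.8 ± 3.94 to 67.0 ± 7.14 CPM in Cluster 8 (adjusted p = 0.044). The highest levels were those of Gpc3 (132.6 ± 76.8 CPM in Cluster 21), Mosmo (105.9 ± 16.4 in Cluster 17), Mgrn1 (76.1 ± 16.4 in Cluster 19) and Ptchd1 (62.7 ± 18.8 in Cluster 13).

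Of 16 genes of the cilium and of Smo and Gli traffic, 0 were called in any cluster by edgeR, with an unadjusted p under 0.05 in 36 of 323 pairs, against 17.4% of pairs over all genes. The highest were Dync2h1, the motor of retrograde transport in the cilium (328.1 ± 40.1 CPM in Cluster 12), Tulp3 (140.3 ± 22.6 in Cluster 21), Kif3a (138.1 ± 18.2 in Cluster 19) and Ift88 (124.5 ± 24.2 in Cluster 21). Of 287 pairs of the 13 kinases and degradation genes, 1 was called lower (0.35% of pairs over all genes) and 0 higher: Dyrk2, a kinase that marks Gli2 for degradation, fell from 28.2 ± 5.53 to 17.2 ± 1.87 CPM in Cluster 2 (log2 fold change -0.76, edgeR, adjusted p = 0.0389) and from 26.6 ± 4.81 to 18.6 ± 1.78 CPM in the RGC sum (adjusted p = 0.0402). Gsk3b (703.8 ± 32.5 CPM) and Csnk1a1 (462.8 ± 29.7 CPM), both highest in Cluster 6, Btrc (322.9 ± 80.6 in Cluster 24) and Spop (253.3 ± 16.9 in Cluster 3) had the highest levels.

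The 7 genes tested among known targets and ventral readouts gave 97 pairs, of which 1 was called lower and 2 higher (0.35% and 0.442% of pairs over all genes). Nkx2-1 fell in Cluster 3 from 41.1 ± 15.995 to 15.5 ± 5.68 CPM (log2 fold change -1.38, edgeR, adjusted p = 0.0418), while Ptch1, Hhip and Gli1 in the same cluster were not called. Hes1, a target of several pathways and a keeper of the progenitor state, rose in Cluster 3 from 35.9 ± 8.22 to 56.2 ± 11.3 CPM (adjusted p = 0.0456) and in Cluster 12 from 54.6 ± 7.22 to 81.8 ± 9.51 CPM (adjusted p = 0.0419). Ccnd2 (419.2 ± 83.5 CPM in Cluster 10), Bcl2 (391.5 ± 104 in Cluster 21), Hes1 (99.4 ± 26.8 in Cluster 2) and Nkx2-1 (56.0 ± 23.6 in Cluster 15) had the highest levels. The microglia markers P2ry12 and Csf1r had a sum of 6.65 to 24.4 CPM in saline and 20.2 to 30.5 CPM in EtOH embryos in the RGC sum, and their part in these results was not tested.

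In the sum of all clusters, 1550 of 18138 genes were called higher and 643 lower. There, 3 further list genes were called that had been called in no single cluster: Dync2h1 lower (175.9 ± 21.7 against 143.9 ± 12.1 CPM, edgeR, adjusted p = 0.0198), Ulk3, a kinase acting on Gli proteins, higher (5.27 ± 1.42 against 7.998 ± 0.95 CPM, adjusted p = 0.0242) and Scube3, a helper of ligand release, higher (12.4 ± 3.02 against 16.2 ± 0.88 CPM, adjusted p = 0.0441). Gpc3 (35.1 ± 10.3 against 23.1 ± 3.22 CPM), Dyrk2 (25.6 ± 4.40 against 20.6 ± 2.21 CPM) and Nkx2-1 (13.8 ± 9.34 against 5.598 ± 2.30 CPM) were called lower in that sum as well.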

How the data were processed

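The authors aligned and counted the reads of 10x 3′ libraries with Cell Ranger (version not given in the sources used here) on mm10, filtered nuclei and clustered them in Seurat, and removed thalamic, non-neuronal and low-transcript clusters. The deposited values are raw UMI counts per gene and nucleus, in 275 tables of 1 embryo and 1 cluster each. Use of strand and of introns is not given in the sources used here. Doublets were not called here.

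Counts were summed per embryo and cluster where at least 10 nuclei were present (9 of the 275 sums were below this) and tested in edgeR 4.0.16 (R 4.3.3) with TMM factors, filterByExpr and the robust quasi-likelihood test, treatment being the sole term. Genes were called at a Benjamini-Hochberg adjusted p under 0.05 and a fold below 0.8 or above its inverse. Counts were also summed over the 5 RGC clusters and over all 25. Shares of nuclei used nuclei thinned to 2000 UMIs and a two-sided exact permutation test over embryos (numpy 2.4.6). Levels between clusters were described without a test, because the clusters were made from the same counts. Alternatives were RLE factors, DESeq2 1.42.0, no filter, a batch term (replicate block), limma 3.58.1 voom with the dam as random block, sums per dam, at least 30 nuclei, thinning, a non-robust fit, each batch alone and each embryo left out. The labels place dams of the same number in the same batch, which is where the pairing comes from. The count test was tested on simulated data. Gene positions are from GENCODE gene models of GRCm38.

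The text names all 10 members, each in its highest cluster, at its smallest p and wherever called, and from each further list the genes called and up to 4 with the highest level, plus 3 genes of most similar pattern per member. The members and lists were chosen with earlier results of these data known. Embryo S2-3 was not used here.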

Additional observations from a re-analysis of the deposited data

Results flagged for a closer look

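Of 46 groups of embryos examined for a single value far from the others, 4 held one by Dixon's criterion, and chance gives about 1 in 20. Gas1 in Cluster 1 had 14.1 CPM in saline embryo S2-2, against 4.38 to 5.47 CPM in the other saline embryos. Gli3 in Cluster 12 had 2370 CPM in EtOH embryo E2-3, against 1660 to 1830 CPM. Ptch1 was high in saline embryo S2-1 in 2 clusters, with 432.2 CPM in Cluster 3 against 244.1 to 279.9 CPM, and 29.1 CPM in Cluster 9 against 8.10 to 14.1 CPM.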

How the results depend on the processing

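No pair of a member and a cluster called by edgeR with all embryos reversed its direction under another fit. This does not extend to pairs that were not called. The 5 pairs of a member and a cluster called by edgeR became 8 with DESeq2, 20 with no filter on low counts, 9 with limma voom and the dam as a random block, 2 with thinned nuclei, 1 in batch 2 alone and 3 with the batch term (replicate block), and 0 to 17 with 1 embryo left out. The 17 were without S2-4, and 0 were called without S1-1, S2-1, E2-1, E2-2 or E2-4. Over all genes, 1721 pairs were called, 5651 with DESeq2, 10729 with no filter, 6457 with voom, 721 with thinned nuclei, 911 with the replicate block, 7833 in batch 1, 50 in batch 2 and 89 to 19056 with 1 embryo left out. In the summed classes 1 member was called, 0 with sums per dam, 3 in batch 1, 0 in batch 2 and 0 to 2 with 1 embryo left out. For shares of nuclei, 0 member pairs were called, and 15 with all UMIs, where EtOH nuclei were shallower. The causes were not tested. Among the values of single pairs and levels, 559 alternatives kept their call or moved by less than the spread, 66 lost the call, 10 gained it and 19 moved further. With thinned nuclei Gli3 was called in Clusters 5 and 15 and in none of Clusters 1, 8, 9 and 16. Low counts limited Gli1, tested in 1 cluster, and Hhip, tested in 2.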
